A study of Saccharomyces cerevisiae with 6 samples.

Results

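The genes of sulfate uptake and assimilation were taken by name, 9 of the 5560 genes in the tables: SUL1, SUL2, MET3, MET14, MET16, MET5, MET10, MET1 and MET8. No measured value entered the choice. In the R64 build, with the reference annotation, they lie apart on 6 chromosomes and are all annotated as protein-coding. SUL1 (YBR294W) spans chromosome II from 789235 to 791814 and MET8 (YBR213W) the same chromosome from 650368 to 651192. SUL2 (YLR092W) lies on chromosome XII from 323544 to 326225. MET3 (YJR010W) lies on chromosome X from 456239 to 457774 and MET5 (YJR137C) on the same chromosome from 678957 to 683285. MET14 (YKL001C) spans chromosome XI from 438777 to 439385 and MET1 (YKR069W) the same chromosome from 571612 to 573393. MET16 (YPR167C) lies on chromosome XVI from 876847 to 877632, and MET10 (YFR030W) on chromosome VI from 213312 to 216419.

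Yeast takes up sulfate through the plasma membrane permeases Sul1 and Sul2 and reduces it stepwise to sulfide. ATP sulfurylase (MET3) activates sulfate, adenylylsulfate kinase (MET14) adds a phosphate, PAPS reductase (MET16) releases sulfite, and sulfite reductase, built of an alpha subunit (MET10) and a beta subunit (MET5), makes sulfide with siroheme as cofactor, which MET1 and MET8 help to synthesise. Transcription of the pathway is known to depend on the activator Met4 with its DNA-binding partners and to be repressed when methionine is plentiful.

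RNA decay was followed by SLAM-seq, in which 4-thiouracil (4TU) given to the cells marks new RNA and appears in reads as T>C conversions that are lost after the label is chased away. BY4741, a haploid laboratory strain labelled wild type, was compared with UPF3-KO cells of the same background, each as 3 cultures described as biological triplicates. Upf3 takes part in nonsense-mediated mRNA decay, which removes transcripts whose translation ends too early, and the series was made to find targets of that pathway from half-lives. By textbook knowledge, BY4741 and so all 6 cultures carry alterations of HIS3, LEU2, URA3 and MET17, the last of which encodes the enzyme that uses the sulfide made by the genes above. Neither the medium nor its methionine content is stated in the labels. Each culture gave 7 libraries: 1 without 4TU (DMSO) and 6 with it, at chase points 1 to 6 with mean times of 0, 1.11, 3.92, 7.85, 17.9 and 57.7, read here as minutes.

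The 42 libraries held 11045419 to 23761767 reads, taken from the 3′ ends of transcripts. MET17 had 0 to 4 reads per library and LEU2 0 to 33, while URA3 had 72 to 321 and HIS3 851 to 5617. Where the reads of URA3 and HIS3 come from was not tested. The a-cell pheromone gene MFA1 had 5150 to 35746 reads per library, against 5 to 54 for the alpha-cell gene MF(ALPHA)1. UPF3 had 24.1, 27.5 and 30.7 normalised CPM (CPM, counts scaled to a common library size) in wild type and 4.32, 5.4 and 6.18 in the deletion, a fold of 0.193 that passed edgeR's quasi-likelihood test with an adjusted p of 0.00297. Which bases were deleted is not given, so the reads that remain cannot be placed inside or outside the deletion. Replicate 1 of both genotypes stood apart: over all genes, the log CPM of wild-type replicates 2 and 3 correlated at 0.999 and those of replicates 1 and 2 at 0.950, while deletion replicates 1 and 2 correlated at 0.889. The library of deletion replicate 1 at chase point 3, with 0.916% of multi-mapping reads, stood apart within its own culture. Library barcodes were shared, 7 of 7, between wild-type replicate 1 and deletion replicate 3 and between deletion replicates 1 and 2. Results that turn on these libraries are given with and without them.

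Transcripts of MET3, MET14 and MET16 were the most abundant of the 9 and those of the permeases the least. Per kilobase of the 3′ counting window, the wild-type level was 134.7 normalised CPM ± 34.1 (SD, n = 3 cultures) for MET3, 102.2 ± 22.8 for MET14 and 94.5 ± 9.66 for MET16. MET10 followed at 72.4 ± 31.4, MET1 at 57.0 ± 12.4 and MET5 at 49.9 ± 5.69. MET8 stood at 20.9 ± 5.46, SUL2 at 13.1 ± 2.13 and SUL1 at 2.04 ± 0.258. From MET3 down to MET5, each gene lay within the spread of its neighbour in this order, and the steps from MET5 to MET8, from MET8 to SUL2 and from SUL2 to SUL1 were larger than the SD. SUL1 rested on 0 to 98 reads per labelled library with a median of 27.5, and 2 of the labelled libraries had 0 reads. MET8 rested on 45 to 933 reads, SUL2 on 16 to 411, and the other 6 genes on 84 to 3139.

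Without UPF3, MET1 and SUL1 rose and the other 7 genes did not pass edgeR's test. The reads compared are the sums of the 6 libraries with label in a culture. MET1, which encodes the methyltransferase that starts siroheme synthesis from uroporphyrinogen, had 23.04, 31.0 and 35.9 normalised CPM in the wild-type cultures and 87.3, 117.8 and 120.4 in the deletion cultures. No deletion culture fell within the wild-type range. The mean was 3.62-fold higher, a log2 change of 1.85 (SE 0.24), with an adjusted p of 0.0104 in edgeR's quasi-likelihood test over 5555 genes. Per kilobase of window, MET1 went from 57.0 normalised CPM in wild type, the fifth of the 9 genes, to 206.3 in the deletion, the first.

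SUL1, the permease with few reads, had 0.924, 1.18 and 1.13 normalised CPM in wild type and 4.05, 2.97 and 2.28 in the deletion, again without overlap. The mean was 2.87-fold higher, a log2 change of 1.52 (SE 0.28), with an adjusted p of 0.0319 by edgeR. SUL2, the other permease, had 6.57, 8.75 and 8.94 in wild type and 5.63, 12.4 and 10.3 in the deletion, with overlapping groups and a log2 change of 0.23 (SE 0.32). MET16, the PAPS reductase, had 46.3, 47.6 and 55.7 normalised CPM in wild type and 95.4, 79.0 and 81.9 in the deletion. Its groups did not overlap, but its log2 change of 0.78 (SE 0.17) missed the threshold with an adjusted p of 0.0541 by edgeR. DESeq2, an alternative test, called MET16 with an adjusted p of 0.00605.

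Among all genes tested, 5.76% were called, 5.58% as higher and 0.18% as lower, against 2 of the 9 genes here, both higher. In 3 of the 9 (MET1, SUL1 and MET16) the lowest deletion culture exceeded the highest wild-type culture, which held for 15.6% of all genes. The median log2 change over the 9 was 0.51, against -0.01 over all genes, and 8 of the 9 changes were positive. MET3 had a log2 change of 0.08 (SE 0.30), MET14 of 0.51 (SE 0.34), MET5 of 0.14 (SE 0.21), MET10 of 0.61 (SE 0.52) and MET8 of -0.05 (SE 0.48), none of them called. In MET10, both replicates 1 were low: wild type had 18.4, 44.8 and 47.0 normalised CPM and the deletion 24.2, 72.3 and 71.5. MET14 ran the other way, with 75.7, 50.3 and 55.2 in wild type and 128.9, 60.9 and 68.8 in the deletion.

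**Figure D1:**
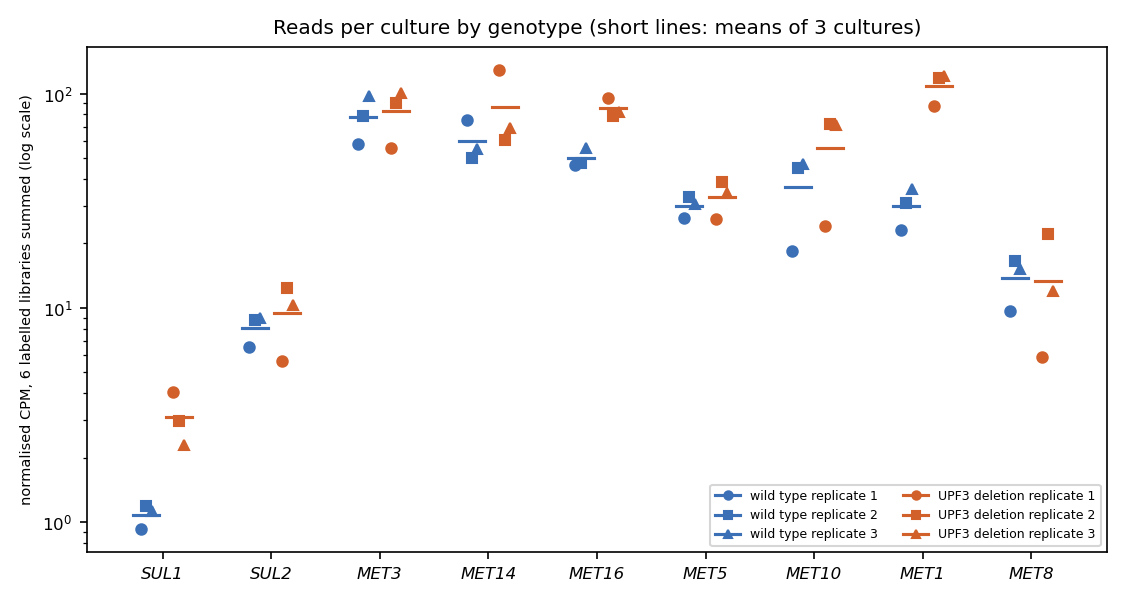
Normalised CPM of each gene (log scale) with the reads of the 6 labelled libraries summed, 1 point per culture, blue for wild type and orange for the UPF3 deletion, with short lines at the mean of 3 cultures. MET1, SUL1 and MET16 separate the genotypes, while in MET10, MET14 and MET8 the replicates 1 lie away from the others.

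With the replicate number as a block, 5 of the 9 genes were called, all higher, where 27.5% of all genes were called and 19.9% as higher. Same-numbered cultures deviated together, but wild-type replicates 2 and 3 deviated nearly as much with the deletion culture of the other number, so whether the numbers mark shared batches was not settled by the data. They were MET1 (adjusted p 2.5e-05 by edgeR), SUL1 (0.00465), MET16 (log2 change 0.78, 0.00233), MET10 (0.57, 0.00466) and MET14 (0.45, 0.0298). Leaving out 1 culture at a time kept the MET1 change between 1.70 and 2.01, but its adjusted p rose to 0.0569 without deletion replicate 3, 0.0777 without wild-type replicate 2 and 0.0564 without wild-type replicate 3. SUL1 lost its call without any 1 of 5 cultures (adjusted p 0.0629 to 0.167) and kept it only without deletion replicate 1 (0.026), and with RLE size factors it had 0.0541. With the library of deletion replicate 1 at chase point 3 left out, MET16 had an adjusted p of 0.0437. These are bulk cultures, so fewer cells that make a transcript and less transcript per cell cannot be told apart.

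The labels and headers do not say if strand was used in counting, so reads of a nearby gene could not be told from reads of a member where windows meet. No annotated gene overlaps any of the 9. The next gene at the 3′ side of MET1, YKR070W, begins 181 bases away and had a log2 change of 0.49 (SE 0.17, adjusted p 0.212 by edgeR). Beside SUL1, PCA1 lies 1035 bases away and had 1.51 (SE 0.40, adjusted p 0.099), close in size to the change of SUL1 itself, and its part in that result was not tested.

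The same difference in MET1 was present without label. In the unlabelled libraries MET1 had 23.8, 24.7 and 31.6 normalised CPM in wild type and 84.1, 119.9 and 126.3 in the deletion, 4.13-fold higher (log2 change 2.11, SE 0.27, adjusted p 0.00941 by edgeR over 5509 genes). Again no culture of one genotype reached the range of the other. It was 1 of the 9 genes called, against 3.3% of all genes called and 3.23% called higher. SUL1 had 0, 0.649 and 0.736 normalised CPM in wild type, the first with 0 reads, and 9.28, 2.62 and 1.52 in the deletion, with unequal deletion cultures and an adjusted p of 0.207 by edgeR. MET16 overlapped between genotypes here, with 87.9, 54.0 and 76.3 in wild type and 102.5, 87.8 and 100.0 in the deletion. With the replicate block, MET10 was called as well (adjusted p 0.0165 by edgeR), where 15.4% of all genes were called. MET1 lost its call in 4 of the 6 fits that leave out 1 culture, those without deletion replicate 2 (adjusted p 0.0502), deletion replicate 3 (0.0576), wild-type replicate 2 (0.0628) and wild-type replicate 3 (0.0638).

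Over the chase, 7 of the 9 genes were higher at chase point 4, at a mean time of 7.85, and 2 of these were still called at chase point 5. This comparison set each chase point against the first labelled library within each of the 6 cultures. MET3, ATP sulfurylase, had 40.4 to 57.8 normalised CPM in the wild-type cultures at chase point 1 and 93.0 to 153.5 at chase point 4. In the deletion cultures it had 34.5 to 60.9 and 65.3 to 127.9 at the same points. It rose in 6 of 6 cultures, 2.25-fold (log2 change 1.17, SE 0.13, adjusted p 1.24e-08 by edgeR over 5542 genes).

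MET14, the kinase, had 38.9 to 56.3 normalised CPM in wild type at chase point 1 and 92.5 to 135.0 at chase point 4, and in the deletion 42.2 to 141.7 and 83.0 to 170.8. It rose 1.95-fold in 6 of 6 cultures (log2 change 0.96, SE 0.14). SUL2 rose 1.91-fold (0.93, SE 0.24) and MET16 1.59-fold (0.67, SE 0.13), both in 6 of 6 cultures. MET5 and MET10, the pair of sulfite reductase subunits, rose 1.68-fold (0.75, SE 0.19) and 1.61-fold (0.69, SE 0.16), each in 5 of 6 cultures. The exception for MET10 was wild-type replicate 1, where it went from 23.7 to 18 normalised CPM. MET1 rose 2.11-fold (1.08, SE 0.28, adjusted p 0.00289) in 6 of 6 cultures, but unequally. Its log2 changes were 1.19, 1.47 and 1.66 in the wild-type cultures and 1.46, 0.27 and 0.24 in deletion replicates 1, 2 and 3.

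The 2 genes not called at chase point 4 also had positive changes, 1.10 (SE 0.48, adjusted p 0.0866) in SUL1 and 0.64 (SE 0.26, adjusted p 0.067) in MET8, which encodes the enzyme that finishes siroheme. Of all genes, 25.8% were called there and 14% as higher. The median log2 change was 0.93 over the 9 genes and -0.01 over all genes. The highest of the 6 labelled libraries of a culture was chase point 4 in 35 of 54 pairs of a gene and a culture, against 16.8% of such pairs over all genes, where the last chase point took 25.1%.

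**Figure D2:**
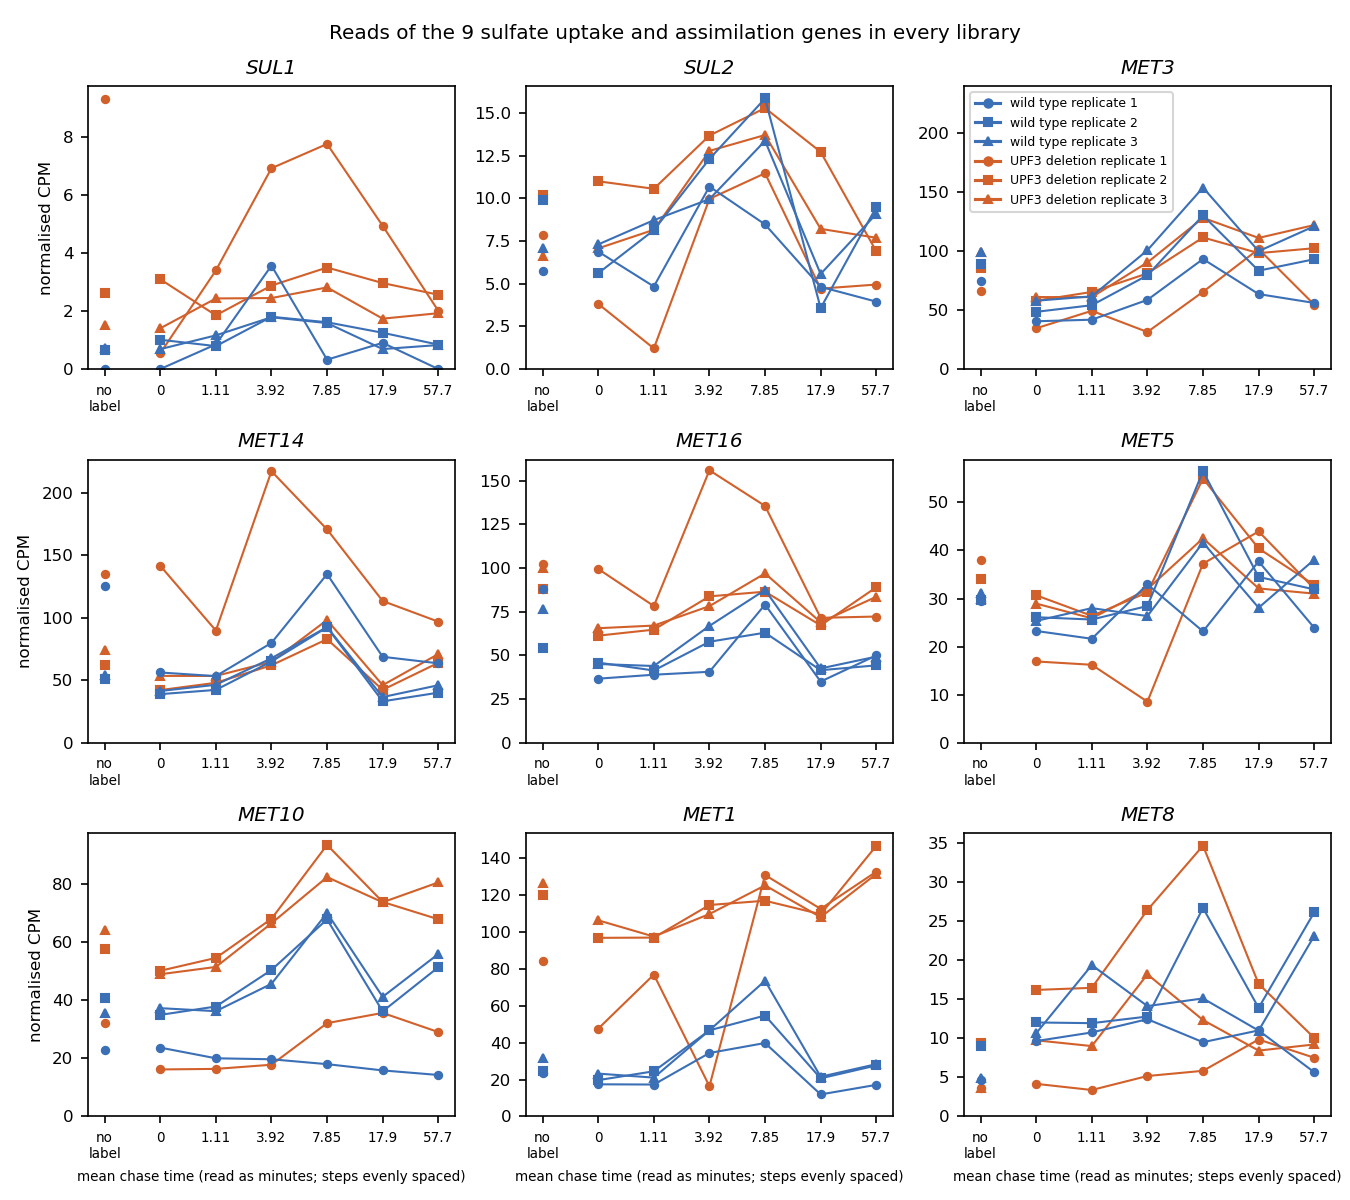
Normalised CPM of each gene (own linear axis from 0) in the unlabelled library and at the 6 chase points, evenly spaced and marked by mean time, with 1 line per culture, blue for wild type and orange for the UPF3 deletion. Most lines reach their top at 7.85; the deletion cultures carry MET1 far above wild type, except at 3.92 in replicate 1.

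For SUL2 and the first 3 enzymes the test was already passed before chase point 4, while SUL1 passed it at chase point 3 and not at chase point 4. At chase point 2, 0 of the 9 passed edgeR's test, 0 had an unadjusted p under 0.05 and DESeq2 called 0, where edgeR called 0.162% of all genes. At chase point 3, at a mean time of 3.92, 5 of the 9 rose, SUL1 by 1.55 on the log2 scale (SE 0.48), SUL2 by 0.77 (SE 0.24), MET14 by 0.58 (SE 0.14), MET3 by 0.52 (SE 0.13) and MET16 by 0.42 (SE 0.13). Of all genes, 7.74% were called there and 5.41% as higher. SUL1 had 0 reads at chase point 1 in wild-type replicate 1. Its log2 change was -0.10 in deletion replicate 2 and 3.66 in deletion replicate 1. MET1 had 0.56 (SE 0.28), MET8 0.52 (SE 0.26), MET10 0.26 (SE 0.16) and MET5 0.07 (SE 0.19), none called.

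After chase point 4 the courses parted. At chase point 5, MET3 remained above the first labelled library (log2 change 0.93, SE 0.13), as did MET5 (0.54, SE 0.19), while MET14 stood at -0.11 (SE 0.14), MET16 at -0.10 (SE 0.13) and SUL2 at -0.09 (SE 0.24). There 28.9% of all genes were called and 15% as higher. At chase point 6, MET3 alone of the 9 was called (0.84, SE 0.13), where 24.5% of all genes were called and 13.6% as higher. MET1 had 0.56 (SE 0.27, adjusted p 0.14 by edgeR), MET10 0.41 (SE 0.16, adjusted p 0.056) and MET5 0.34 (SE 0.19).

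The step from the unlabelled to the first labelled library went the other way in the first enzymes. The unlabelled library is marked DMSO at time 0, the same time as chase point 1, so an order in time is not implied. MET3 fell by 0.79 on the log2 scale (SE 0.13) in 6 of 6 cultures. In wild type it had 74.7 to 98.8 normalised CPM without label and 40.4 to 57.8 at chase point 1. MET16 fell by 0.58 (SE 0.13) in 6 of 6 cultures and MET14 by 0.49 (SE 0.14) in 5 of 6. MET8 rose by 0.83 (SE 0.27, adjusted p 0.0282) in 6 of 6 cultures. Of all genes, 18.9% were called, 10.7% as higher and 8.14% as lower, against 1 higher and 3 lower of the 9 here. The rises at chase point 4 thus start from a level below that of the unlabelled library in MET3, MET14 and MET16. Mean normalised CPM, unlabelled and at chase point 4, were 72.7 and 76.5 for MET16 in wild type and 96.8 and 106.3 in the deletion. They were 77.2 and 106.7 for MET14 and 87.5 and 125.5 for MET3 in wild type, and 90.4 and 117.4 and 83.6 and 101.5 in the deletion. Chase point 4 was not tested against the unlabelled library.

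Without terms for the cultures, 4 of the 9 were called at chase point 4 (MET3, MET1, MET16 and MET5 kept their calls) and 0 at chase point 3. Leaving out 1 culture at a time gave 7 to 9 called genes at chase point 4 and 1 to 4 at chase point 3.

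Of the 9 genes, MET1 had the lowest p for a course that differs between the genotypes. In wild type it had 17.4, 19.7 and 23.2 normalised CPM at chase point 1, 39.8, 54.7 and 73.5 at chase point 4, and 11.9, 20.6 and 21.5 at chase point 5. In deletion replicates 2 and 3 it had 96.7 and 106.2 at chase point 1, 116.8 and 125.1 at chase point 4, and 109.5 and 107.9 at chase point 5. Deletion replicate 1 had 47.6, then 16.4 at chase point 3 from 161 reads, then 130.7 at chase point 4 and 112.4 at chase point 5. All wild-type cultures thus peaked and returned, and deletion replicates 2 and 3 stayed between 96.7 and 146.5 at all 6 chase points. Each deletion culture had its highest value at chase point 6, with 132.5, 146.5 and 131.3 in replicates 1, 2 and 3.

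The joint edgeR test of step by genotype gave MET1 an unadjusted p of 0.00119 and an adjusted p of 0.276, and 0.162% of all genes were called. Without the library of deletion replicate 1 at chase point 3 the adjusted p was 0.0037, without that whole culture 1.09e-04, and with DESeq2 0.00528. It rose to 0.991 when wild-type replicate 3 was left out. For the other 8 genes the adjusted p was 0.859 or more. SUL2 had opposite directions at chase point 5 against chase point 1, with a mean log2 change of -0.52 over the wild-type cultures and 0.24 over the deletion cultures.

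Labelling before the chase gave no call between the genotypes. At chase point 1 the share of T converted, less that of the unlabelled library, was 2.77% ± 0.233 (SD, n = 3) in wild type and 2.91% ± 0.403 in the deletion for MET3, and 2.65% ± 0.540 and 2.36% ± 0.182 for MET1. Over all genes the culture medians averaged 2.70% ± 0.160 and 2.52% ± 0.132. By limma 0 of the 8 genes tested were called, 1 had an unadjusted p under 0.05, and 0 of 5404 genes were called, of which 4.29% had an unadjusted p under 0.05. MET8 had the lowest p of the 8, with 4.21%, 2.81% and 2.67% in wild type and 1.51%, 1.87% and 2.71% in the deletion (adjusted p 0.796). SUL1 was not tested, since in wild type it had 0 reads in replicate 1 and 0 converted T above background in replicate 3.

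At chase point 4, MET1, MET3, MET14 and MET16 kept more of their first label in every deletion culture than in any wild-type culture. For MET1 the share of the first conversion rate left was 37.8%, 29.2% and 48.0% in wild type and 69.3%, 56.0% and 64.2% in the deletion, a log2 change of 0.74 (SE 0.23, unadjusted p 0.0151, adjusted p 0.358 by limma). MET16 had 34.7%, 45.8% and 35.8% in wild type against 59.7%, 50.4% and 56.4% (log2 change 0.53, SE 0.18, adjusted p 0.396). MET3 had a mean of 42.9% ± 2.76 against 51.2% ± 3.14, and MET14 of 40.0% ± 3.03 against 48.9% ± 4.96.

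By limma 0 of the 8 genes tested were called and 2 (MET1 and MET16) had an unadjusted p under 0.05. Of 5329 genes 0% were called, while 11.4% had an unadjusted p under 0.05 and 19.2% had every deletion culture above every wild-type culture. The share left was higher in the deletion over all genes as well, with culture medians averaging 51.8% ± 3.34 in wild type and 61.9% ± 4.44 in the deletion. At chase point 5, MET1 had 23.8%, 20.3% and 19.6% left in wild type and 49.9%, 39.8% and 47.6% in the deletion (log2 change 1.11, SE 0.17, unadjusted p 4.76e-04, adjusted p 0.168 by limma).

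The conversion rate is a share of all reads of a gene, so it moves with new unlabelled transcripts as well as with decay, and the reads of these genes were not steady over the chase. Measured instead as converted T per normalised library, a quantity chosen after the data were seen, the label left at chase point 4 had a log2 change of -0.04 in MET1 (adjusted p 0.973 by limma), -0.23 in MET14 and -0.11 in MET3. The label left in MET16 by this quantity is not given here, so these values do not speak for MET16. By the same quantity, a line through all chase points gave MET1 half-lives of 9.52, 14.5 and 13.1 in wild type, read as minutes. In the deletion they were 26.3, 21.2 and 17.3, without overlap (log2 change 0.81, SE 0.25, adjusted p 0.765 by limma). MET14 had a log2 change of 0.34 in these half-lives, MET3 of 0.15 and MET16 of 0.13 (SE 0.21), while MET5 had -0.06.

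**Figure D3:**
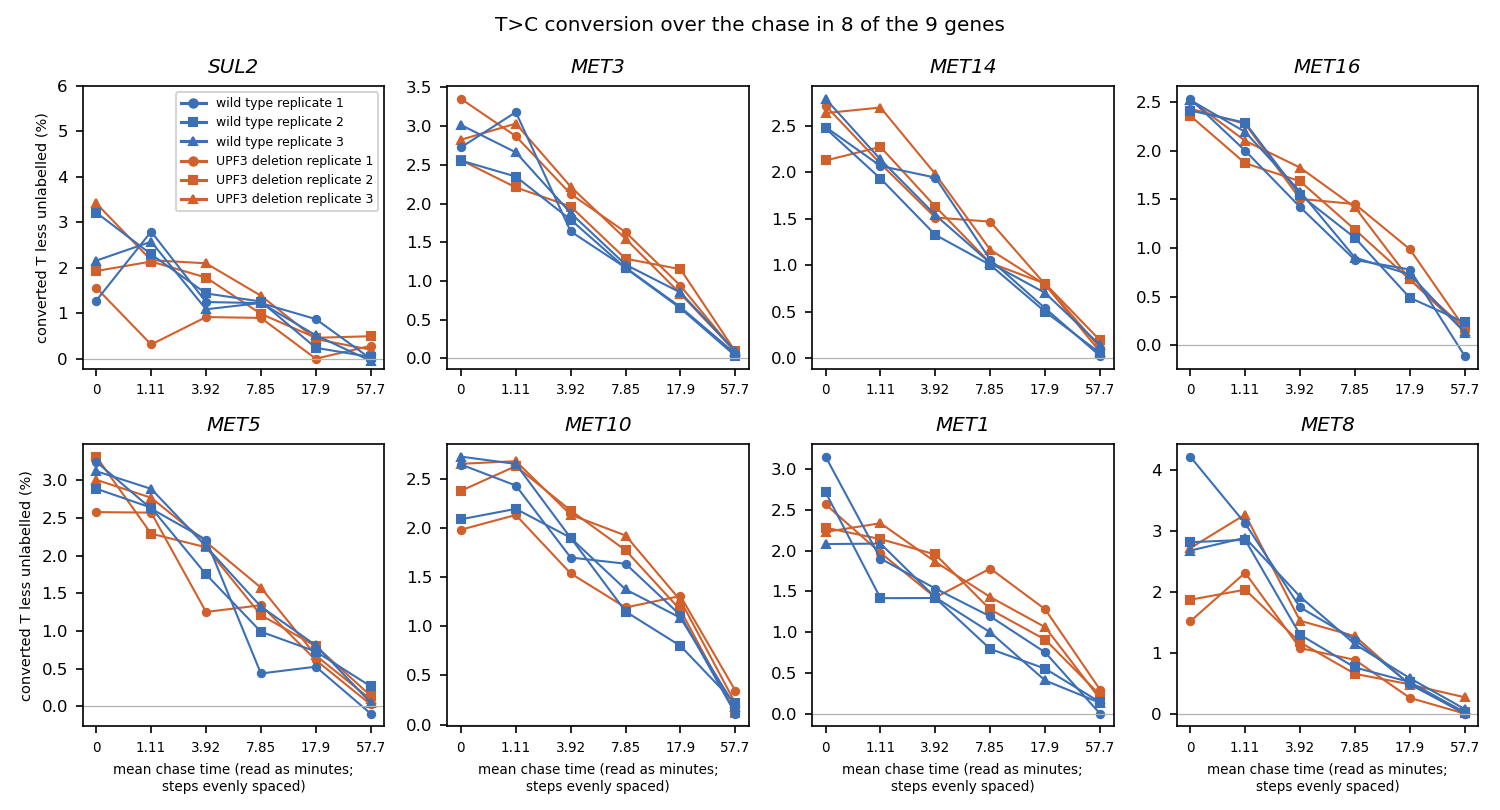
Percent of covered T converted, less the unlabelled library, against chase point (evenly spaced, marked by mean time) for 8 of the 9 genes (SUL1 had too few reads), 1 line per culture, blue for wild type and orange for the UPF3 deletion, each on its own linear axis. All curves fall towards 0 at 57.7. In MET1, MET3 and MET16 the deletion lines lie above the wild-type lines at 7.85.

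Half-lives of the 9 genes did not pass the test between genotypes by either way of fitting, with SUL1 tested by the second way only. The main fit was a line through log2 conversion rates, weighted by reads. For MET1 it gave 9.57, 16.1 and 14.9 in wild type and 19.7, 17.9 and 15.9 in the deletion, read as minutes, with overlapping groups (log2 change 0.43, SE 0.25, adjusted p 0.872 by limma). All 8 genes tested had a positive log2 change, with a median of 0.23 against 0.03 over all genes, and adjusted p from 0.858 to 0.988. The largest was that of SUL2, with 18.9, 9.61 and 8.62 in wild type and 30.8, 25.5 and 14.9 in the deletion (log2 change 0.97, SE 0.41). SUL1 could not be fitted in wild-type replicate 1. By limma 0 of the 8 had an unadjusted p under 0.05. Of 5333 genes, 0% were called and 5.66% had an unadjusted p under 0.05.

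A nonlinear fit of a single exponential, an alternative, gave shorter times in wild type. MET1 had 6.26, 5.71 and 7.21 in wild type and 20.6, 11.8 and 14.6 in the deletion, 2.45-fold longer without overlap (log2 change 1.26, SE 0.23, unadjusted p 0.00129, adjusted p 0.0813 by limma). MET10 had 12.4, 11.1 and 10.3 against 23.98, 14.8 and 16.2 (log2 change 0.68, SE 0.20, adjusted p 0.194). MET16 had 6.04, 7.13 and 6.40 against 11.7, 9.05 and 10.1 (0.65, SE 0.16, adjusted p 0.144). MET3 and MET14 were also longer in every deletion culture, with log2 changes of 0.49 (SE 0.18) and 0.29 (SE 0.16). That made 5 of the 9, where 21.3% of all genes had every deletion culture above every wild-type culture and 0.37% were called. The median over the 9 was 0.49, against 0.16 over all genes. SUL2 turned to -0.11 in this fit.

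**Figure D4:**
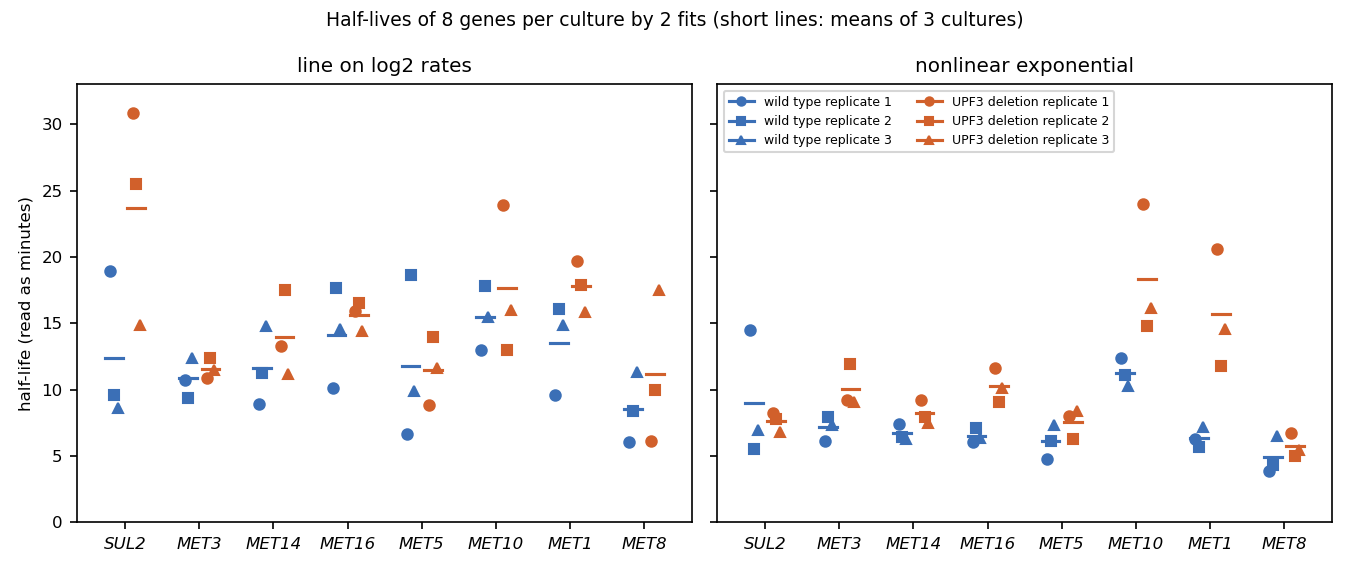
Half-lives (read as minutes) of 8 genes per culture from the line on log2 rates (left) and the nonlinear exponential (right), blue for wild type and orange for the UPF3 deletion, with short lines at the mean of 3 cultures. In the right panel MET1, MET10, MET16, MET3 and MET14 separate the genotypes; in the left panel no gene does.

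In wild type, MET8 had the shortest half-life of the 8 genes by both fits, 8.57 ± 2.62 (SD, n = 3) by the line and 4.90 ± 1.40 by the exponential, with 5.4% and 3.72% of genes shorter. MET10 had the longest, 15.5 ± 2.40 and 11.2 ± 1.09, with 91.6% and 73.4% of genes shorter. Between them the order depended on the fit. MET1 had 13.5 ± 3.46 by the line, longer than 81.5% of genes, and 6.39 ± 0.758 by the exponential, longer than 19.6%. MET16 moved from 86.2% to 21.7% and MET5 from 57.8% to 15.6%.

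Downstream and neighbouring genes of sulfur metabolism were counted as a list of 34, of which 33 were tested, MET17 being the exception. Of these, 4 were higher without UPF3 and 0 lower: JLP1, a sulfonate dioxygenase (log2 change 2.52, SE 0.19), BDS1, a sulfatase (2.16, SE 0.18), IRC7, a beta-lyase (1.35, SE 0.14), and HEM4, uroporphyrinogen III synthase (1.09, SE 0.16). HEM4 makes the compound from which Met1 starts. Of all genes, 5.76% were called and 5.58% as higher. The median log2 change over the 33 was -0.07. With the replicate block, 9 were higher, MHT1 (0.50, SE 0.11), STR2 (0.71, SE 0.15), SSU1 (0.38, SE 0.09), SOA1 (1.12, SE 0.13) and YCT1 (0.64, SE 0.13) being added. By the same fit 2 were lower, MUP1 (-0.36, SE 0.10) and HOM3 (-0.76, SE 0.21), where 19.9% of all genes were higher and 7.54% lower. In the unlabelled libraries 2 were called, JLP1 (2.89, SE 0.25) and BDS1 (2.21, SE 0.29), where 3.3% of all genes were called. With the block 7 were called, all higher, IRC7, SOA1, STR2, HEM4 and YCT1 being added (adjusted p 3.17e-04 to 0.0319 by edgeR), where 13.2% of all genes were called higher.

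At chase point 4 against chase point 1, 16 of the 33 rose and 1 fell, where 14% of all genes were called higher and 25.8% in all. The lowest p belonged to the S-methylmethionine permease MMP1 (2.47, SE 0.19), the methionine permease MUP1 (1.13, SE 0.09), the cystathionine beta-lyase STR3 (2.43, SE 0.25) and the homoserine acetyltransferase MET2 (1.06, SE 0.11). At chase point 3, 10 rose and 0 fell, where 5.41% of all genes were called higher. At chase point 5, 5 were higher and 6 lower, where 15% of all genes were called higher and 28.9% in all, so the higher share matched that of all genes. They held MUP1 (-0.93, SE 0.09), MUP3 (-2.04, SE 0.22) and STR3 (-1.93, SE 0.29) among the lower and MMP1 (1.59, SE 0.19) among the higher. From the unlabelled to the first labelled library 0 rose and 8 fell, where 10.7% of all genes were called higher and 8.14% lower. They were led by the S-adenosylmethionine synthetase SAM2 (-1.44, SE 0.16) and the methionine synthase MET6 (-1.28, SE 0.21), with HOM2 (-0.44, SE 0.08) and MET22 (-0.40, SE 0.09).

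Of the 6 regulators 0 were called between genotypes by edgeR or DESeq2, and 0 had an unadjusted p under 0.05 in edgeR, with log2 changes of -0.26 (SE 0.54) for the activator MET4, -0.08 (SE 0.33) for CBF1, -0.31 (SE 0.17) for MET28, 0.16 (SE 0.22) for MET31, 0.05 (SE 0.32) for MET32 and 0.29 (SE 0.48) for MET30, the ubiquitin ligase subunit that restrains Met4. Over the chase, MET28 (1.31, SE 0.18) and MET32 (1.18, SE 0.20), which encode partners of Met4, rose at chase point 3. At chase point 4, MET32 (1.33, SE 0.20), MET28 (0.60, SE 0.18), MET30 (0.45, SE 0.16) and CBF1 (0.39, SE 0.14) were higher. MET28 fell by 1.32 (SE 0.19) at chase point 5 against chase point 1. MET4 had 0.00 (SE 0.18) at chase point 4 and was called at no point.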

How the data were processed

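Per the file headers, the authors ran SlamDunk and collapsed its output to a line per gene for each library. The genome build is R64, per the submitters' processing notes. Per the labels' protocols, alkylated total RNA went into QuantSeq 3′ FWD libraries. Nothing on software versions, settings or strand is given in the sources used here. The tables as deposited give counts of reads, of reads with T>C, of multi-mapping reads, and of covered and converted T in each 3′ window. The authors' conversion rate, a fraction of covered T, matched the ratio of these counts. The deposited window length and T content are in bases, and the deposited chase time has no unit and was read as minutes. The libraries held 11045419 to 23761767 reads, and their number, 3 cultures per genotype, limits the precision. Of 5560 identifiers 5558 matched the reference annotation.

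Reads, added up per culture from its 6 labelled libraries, taken from the unlabelled library, or taken library by library with a term per culture, were tested with edgeR 4.0.16 (filterByExpr, TMM, glmQLFit, glmQLFTest). Normalised CPM use library sizes scaled by TMM. Half-lives are inverse slopes of read-weighted lines of −log2 conversion rate, less the unlabelled rate, on time. A half-life by the line required, in all 6 cultures, signal at 3 chase points at least and a slope above 0. Both fits required 20 reads per labelled library on average. Log2 half-lives, first label and label left were tested with limma 3.58.1 (trend, robust). The nonlinear fit searched half-lives from 1 to 500, without the rules on chase points and slope. Adjusted p values are by Benjamini-Hochberg over all genes, two-sided, called under 0.05. DESeq2 1.42.0, other size factors, filters and models, and leaving out cultures or a library were alternatives. Scripts ran in R 4.3.3 (package data.table, version 1.17.8) and Python 3.11.15 (pandas 2.3.3, matplotlib 3.10.9). The methods were tested on simulated data first.

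Cultures were grouped by their titles. Same-numbered cultures of both genotypes deviated together in reads (correlations over genes 0.939, 0.910 and 0.866), so blocked values are given for reads. Wild-type replicate 2 with deletion replicate 3 (0.790) and wild-type replicate 3 with deletion replicate 2 (0.823) came close, while replicate 1 of each genotype ran against both. Deviations were taken from the mean of a genotype and sum to 0. The opposition of replicate 1 thus follows largely from the calculation and says nothing about batches. In half-lives same-numbered cultures did not deviate together (0.057, 0.030 and 0.024). By the rule for named genes, all 9 members and all 6 regulators are given, the 4 genes of lowest p of the downstream list, and the 8 genes most like the members. Members, lists and rules were chosen with earlier results of these data known. The planned search of promoters for motifs was not made, since no promoter sequence was at hand.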

Additional observations from a re-analysis of the deposited data

Results flagged for a closer look

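Among 48 groups of 6 changes (the 8 genes other than SUL1, 6 steps each), 10 held a culture far from the other 5 by Dixon's criterion, where chance flags about 1 in 20. The groups are not independent, since steps of a gene share the chase point 1 library and all genes share the cultures. So 1 odd library can be flagged several times, and the 10 cannot be weighed against that rate. In 8 of the 10 the culture was deletion replicate 1. For MET3 its log2 change from chase point 1 was 0.52 at chase point 2 (others -0.00 to 0.17), -0.14 at chase point 3 (others 0.48 to 0.80) and 1.56 at chase point 5 (others 0.65 to 0.87). For MET14 it was -0.66 at chase point 2 (others -0.08 to 0.19), for MET5 -0.98 at chase point 3 (others 0.03 to 0.50) and for MET8 1.24 at chase point 5 (others -0.21 to 0.21). From the unlabelled to the first labelled library it was -1.17 for MET5 (others -0.34 to -0.04) and -0.82 for MET1 (others -0.45 to -0.25). In the remaining pair it was wild-type replicate 1, with MET10 at -0.40 at chase point 4 (others 0.75 to 0.99) and -0.73 at chase point 6 (others 0.44 to 0.84).

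SUL2 moved in opposite directions in every culture of the genotypes at chase point 5 against chase point 1. The mean log2 change was -0.52 in wild type and 0.24 in the deletion, a difference of 0.76 that was not tested on its own.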

How the results depend on the processing

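Depth limits SUL1 most, with libraries of 0 reads. Between genotypes, edgeR called 320 genes in labelled libraries, 564 with DESeq2, 1527 with the replicate block, 1527 with replicates 2 and 3 only, and 50 to 474 with 1 culture left out. Of the 9 genes 2 were called, 1 with RLE size factors, 5 with the block, 4 with replicates 2 and 3, and 0 to 2 with 1 culture left out. DESeq2 called MET16 in addition to those 2. In unlabelled libraries 182 genes became 368 (DESeq2), 849 (replicate block), 782 (replicates 2 and 3) and 22 to 259 (1 culture out), and 1 of the 9 became 2, 2, 2 and 0 to 1.

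With genotype in place of culture terms (no replicate block), the calls against the unlabelled library went from 1046 to 189 (4 to 2 of the 9), and against chase point 1 from 9 to 4 at chase point 2, 429 to 127 (5 to 0) at 3, 1432 to 581 (7 to 4) at 4, 1604 to 523 (2 to 1) at 5, and 1356 to 373 at 6. With replicates 2 and 3 only they were 2284 against the unlabelled library, 21 at chase point 2, and 4 of the 9 at chase point 6. Without the library of deletion replicate 1 at chase point 3 they were 18 at chase point 2 and 3 of the 9 at chase point 6, where DESeq2 called 2. With 1 culture left out they ranged from 556 to 2035 (2 to 4 of the 9) against the unlabelled library, 5 to 15 at chase point 2, 249 to 575 (1 to 4) at 3, 1065 to 1785 (7 to 9) at 4, 1161 to 1934 (1 to 3) at 5 and 860 to 1582 (1 to 2) at 6. For step by genotype, 9 calls became 43 with DESeq2 (1 of the 9), 3 to 21 with 1 culture out (0 to 1), and 1 of the 9 without the library of deletion replicate 1 at chase point 3.

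Half-life calls went from 0 to 20 with the exponential and 3 without the last chase point, 0 of the 9 in both. The replicate block also raised the calls in the list of 33 downstream genes, from 4 to 11 in labelled and from 2 to 7 in unlabelled libraries, and changed no call of half-life, first label or label left.

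Sign changes concerned values that were not called. In reads, MET8 (-0.05) had 0.13 with replicates 2 and 3 only and -0.62 to 0.30 with 1 culture left out, where SUL2 had -0.021 to 0.49 and MET3 -0.092 to 0.30. In half-life, MET3 had -0.071 and MET5 -0.26 without background subtraction, SUL2 -0.11 by the exponential, and MET5 -0.063 per normalised library. With 1 culture out, half-life changes spanned -0.27 to 0.47 in MET5, -0.090 to 0.35 in MET10, -0.083 to 0.67 in MET8, -0.041 to 0.36 in MET16 and -0.000924 to 0.20 in MET3. With replicates 2 and 3 only, MET16 had -0.057, MET5 -0.094 and MET10 -0.21. In label left, MET3 had -0.11, MET14 -0.23 and MET1 -0.042 per normalised library. The causes of these moves were not tested.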

Other observations

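Over all 42 libraries, the 8 genes whose log2 normalised CPM was most like the mean standardised profile of the 9 were found among 5466 genes with a mean of at least 20 reads. They were MHT1 (Pearson's r 0.824), INO2 (0.818), MEP2 (0.807), DUR3 (0.807), SNZ1 (0.792), YOR302W (0.790), CNM1 (0.789) and CPA1 (0.788). These values are a description, since libraries of 1 culture share their cells. Among the 9 themselves, the highest r was 0.733 (MET3 and MET5) and the lowest -0.46 (MET14 and MET8). SDS24, 223 bases beyond the 3′ end of MET8, had a log2 change of -0.99 (SE 0.29, adjusted p 0.00866 by edgeR) at chase point 4, against 0.64 in MET8.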
